A study of Mus musculus with 96 samples.

Results

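Klhl13 transcripts differed widely between single mouse embryonic stem (ES) cells, and the naive cells with least Klhl13 were set against those with most. Lanes were summed per cell, and each gene's reads were scaled to CPM, its reads per 1e6 reads of that cell in genes. Of 48 cells, 35 had Gata6, a transcription factor of primitive endoderm, under 20 CPM and are called naive. These 35 cells were ranked by Klhl13. The 12 lowest are called Klhl13-low and the 12 highest Klhl13-high, and the 11 between them are called middle cells. The 24 compared cells are thus part of a series of 48 cells, of which 13 had Gata6 at 20 CPM or more.

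All cells, in both groups, were J1 ES cells at passage 12 to 20, grown without feeder cells in medium with serum and leukaemia inhibitory factor (LIF). No treatment or genotype separated the groups. Each cell was lysed and its cDNA amplified on a microfluidic chip, and its library was sequenced on 2 lanes. Separate cultures are not named in the labels, so all cells count as 1 sample. No p-value or standard error is therefore given. Differences are described by their size, by the lowest, median and highest cell of each group, and by how far the groups overlap. Poisson intervals of summed reads cover counting error only, and the reads carry no molecular identifiers, so they are not counts of molecules. Exact intervals of a share of cells cover the counting of these cells only and take them as independent.

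Klhl13 encodes a substrate adaptor of the ubiquitin ligase built on cullin 3 (CUL3). Adaptors of the KLHL family bind CUL3 with their BTB domain and the substrate with their Kelch repeats. In human cells KLHL13 works with its near relative KLHL9, and together they bring the mitotic kinase Aurora B to CUL3 so that it leaves the chromosomes. The gene is X-linked, and in mouse ES cells its dosage is one of those linked to differences between female and male lines in leaving the naive state. J1 is a male line with a single copy.

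Klhl13 chose the groups, so its values are a description. In Klhl13-low cells it ran from 0 over a median of 8.05 to 55.7 CPM, in middle cells from 74.6 over 272 to 344 CPM, and in Klhl13-high cells from 504 over 989 to 1625 CPM. The cells just inside and just outside the lower limit, at ranks 12 and 13, had 55.7 and 74.6 CPM, and those at ranks 23 and 24 had 344 and 504 CPM. Summed over 12 cells, there were 1300 Klhl13 reads in Klhl13-low cells (17.0 CPM, 95% Poisson interval 16.1 to 17.9) and 94430 in Klhl13-high cells (1051 CPM, 1045 to 1058). With all cells thinned to 4408953 reads, at least 5 Klhl13 reads were found in 9 of 12 Klhl13-low cells (75.0%, exact 95% interval 42.8% to 94.5%) and in 12 of 12 Klhl13-high cells (73.5% to 100%). In the 13 cells with Gata6, Klhl13 ran from 0.267 over a median of 30.8 to 562 CPM.

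**Figure D1:**
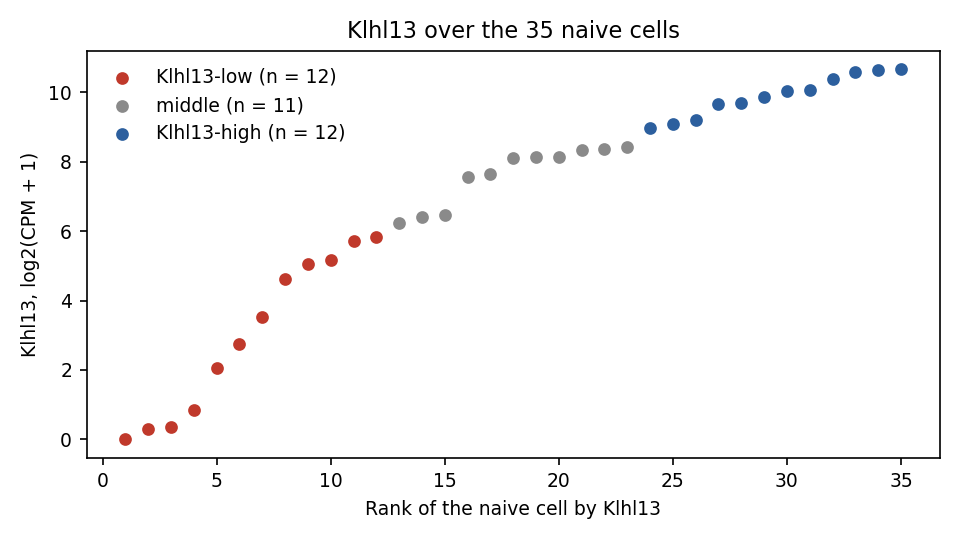
Klhl13 in the 35 naive cells, as log2(CPM + 1) on the vertical axis against the rank of the cell, with 12 Klhl13-low cells in red, 11 middle cells in grey and 12 Klhl13-high cells in blue. Red points run from 0 to 55.7 CPM, grey points from 74.6 to 344 CPM and blue points from 504 to 1625 CPM.

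The promoters of Klhl13 and of 3 genes with some of the largest differences between the groups are shown for reference. Each runs from 250 bases before to 50 bases after the annotated start, from RefSeq on GRCm38.p6. The counts were made on mm9, so these coordinates do not apply to them. Capitals mark the motif matches described after the sequences. Klhl13 lies at chrX:23365033-23365332 on the minus strand, Meg3 at chr12:109540746-109541045 on the plus strand, Ptprg at chr14:11553303-11553602 on the plus strand and Zc4h2 at chrX:95658460-95658759 on the minus strand.
Klhl13: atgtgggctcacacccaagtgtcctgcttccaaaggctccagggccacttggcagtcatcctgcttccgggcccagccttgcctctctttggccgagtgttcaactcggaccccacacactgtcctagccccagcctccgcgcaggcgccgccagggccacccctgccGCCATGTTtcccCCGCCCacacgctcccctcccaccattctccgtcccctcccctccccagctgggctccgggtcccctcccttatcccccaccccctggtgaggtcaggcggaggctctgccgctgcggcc
Meg3: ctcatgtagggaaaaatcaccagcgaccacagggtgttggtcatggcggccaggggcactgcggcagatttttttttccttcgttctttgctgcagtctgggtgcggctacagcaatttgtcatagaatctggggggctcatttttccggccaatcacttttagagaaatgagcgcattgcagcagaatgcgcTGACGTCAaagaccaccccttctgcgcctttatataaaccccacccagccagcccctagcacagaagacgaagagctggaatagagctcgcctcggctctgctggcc
Ptprg: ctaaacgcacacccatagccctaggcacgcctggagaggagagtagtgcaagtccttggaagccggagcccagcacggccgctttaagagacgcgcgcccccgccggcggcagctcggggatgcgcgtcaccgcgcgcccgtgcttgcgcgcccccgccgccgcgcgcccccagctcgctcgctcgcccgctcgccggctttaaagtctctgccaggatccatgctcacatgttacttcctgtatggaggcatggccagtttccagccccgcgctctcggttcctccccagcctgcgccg
Zc4h2: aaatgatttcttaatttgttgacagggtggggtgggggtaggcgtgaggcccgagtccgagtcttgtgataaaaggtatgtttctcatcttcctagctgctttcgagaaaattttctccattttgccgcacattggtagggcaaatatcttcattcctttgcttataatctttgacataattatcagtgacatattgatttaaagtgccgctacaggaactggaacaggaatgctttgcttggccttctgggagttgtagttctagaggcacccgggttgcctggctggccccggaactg
The windows hold 15 CpG pairs in Klhl13, 13 in Meg3, 36 in Ptprg and 8 in Zc4h2, with 69.0%, 53.7%, 69.0% and 45.7% G and C.

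In all, 6 motifs were searched on both strands. They are GGGCGG (the GC box), CACGTG (the E-box of MYC and USF), TGACGTCA (the CRE), ATGCAAAT (the octamer of POU factors), CCGGAAGT (an ETS site) and GCCATNTT (a YY1 site). No match of one overlapped a match of another in the 4 windows shown. The Klhl13 window holds GCCATGTT and, 4 bases on, CCGCCC, the reverse complement of the GC box. The Meg3 window holds TGACGTCA, found in 1.88% of all 27025 promoters and in 3.47% of the promoters of genes compared here. The windows of Ptprg and Zc4h2 hold none of the motifs. GGGCGG was found in 35.9% of all promoters and in 66.2% of the 8073 promoters of genes compared here. It was present in 5 of 13 promoters of the named genes higher in Klhl13-low cells and in 10 of 12 of those lower, the genes having been chosen by their difference. GCCATNTT was found in 6.23% of all promoters, CACGTG in 7.24%, CCGGAAGT in 4.00% and ATGCAAAT in 1.75%. Among the promoters of genes compared here these shares were 9.64%, 10.8%, 8.86% and 1.37%, in the same order. A match of letters is not a binding site.

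Both groups carried the naive markers, though not each marker in every cell. Zfp42 (Rex1) ran from 551 over 1957 to 3770 CPM in Klhl13-low cells and from 285 over 1333 to 3066 CPM in Klhl13-high cells. Esrrb, Tfcp2l1, Klf4, Nanog, Pou5f1 and Sox2 had reads in 12 of 12 cells of each group. Tbx3 and Tcl1 had reads in 12 of 12 Klhl13-low and 11 of 12 Klhl13-high cells. Dppa3 had reads in 11 of 12 Klhl13-low and 12 of 12 Klhl13-high cells. Having reads is a low bar, since the lowest Klf4 level was 0.130 CPM, in a Klhl13-low cell. Gata6 reached 1.36 CPM at most in any naive cell, and the next cell had 82.8 CPM. Of the defining markers, Foxa2, Cdx2, T, Gsc, Mesp1, Col1a2, Col3a1, Zscan4c, Zscan4d and Zscan4f had no read in any of the 24 cells. Eomes had reads in 4 of 12 Klhl13-low and 3 of 12 Klhl13-high cells, up to 41.2 CPM and 35.9 CPM, and Krt7 in 2 of 12 cells of each group, up to 14.3 CPM in Klhl13-low and 221 CPM in Klhl13-high cells.

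The summed level of the 20 primitive endoderm markers ran from 42.3 over 359 to 795 CPM in Klhl13-low cells and from 226 over 397 to 857 CPM in Klhl13-high cells. Much of this was Sparc, which over summed reads had 278 CPM in Klhl13-low and 325 CPM in Klhl13-high cells. Gata4, Sox17, Pdgfra and Dab2 reached 3.39 CPM at most in any of the 24 cells. The 12 trophoblast markers summed to 0.782, 72.9 and 246 CPM at the lowest, median and highest Klhl13-low cell, against 4.19, 95.0 and 1835 CPM in Klhl13-high cells. The keratins Krt8 and Krt18 of this list had 739 and 621 CPM in Klhl13-high cell 14. Cdx2 and Elf5 had no read in Klhl13-high cells. Mesendoderm markers reached 41.2 CPM at most in Klhl13-low cells and 60.6 CPM in Klhl13-high cells, with 6 of 12 at 0 in all 24. Neuroectoderm markers had a median of 100 CPM in Klhl13-low cells, nearly all of it Tubb3, and of 28.2 CPM in Klhl13-high cells. Fibroblast markers had a median of 192 CPM in Klhl13-low cells and of 136 CPM in Klhl13-high cells, with 6 of 10 at 0. Of these markers, Fn1 alone had 161 CPM over summed reads in Klhl13-low and 167 CPM in Klhl13-high cells. The 2-cell-like list had a median of 556 CPM in Klhl13-low cells and of 583 CPM in Klhl13-high cells, which came from Eif1a, with 7 of 11 genes at 0. The part that other cell states have in the differences was not tested.

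Depth and detection differed somewhat between the groups. Klhl13-low cells had 4408953 to 9122261 reads in genes (median 6284558), and Klhl13-high cells 5257314 to 9767245 (median 7610107). Klhl13-low cells had reads on 9230 ± 616 genes and Klhl13-high cells on 8951 ± 435 (SD, n = 12 each). The lanes of a cell agreed within sampling noise, with a chi-square index of 0.964 to 1.05 over all cells. Of the Klhl13-low cells, 4 of 12 were numbered 44 to 48 in the labels, against 0 of 12 Klhl13-high cells. What the numbers stand for is not given in the sources used here. The main counts were repeated without these cells, a choice made after seeing the data, and the part of depth and of cell number in the differences was not tested.

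Compared were the 11307 genes whose mean over the 24 cells was at least 10 reads, Klhl13 left out. The difference is the mean log2(CPM + 1) of Klhl13-low cells minus that of Klhl13-high cells, and 1 log2 unit was taken as the limit of a call. Of these genes, 1442 (12.8%) were higher by at least 1 unit in Klhl13-low cells and 816 (7.22%) were lower, so 20% were past the limit in either direction. This is the background against which the counts of gene lists are read. The median of all genes was 0.10, and with TMMwsp scaling factors it was -0.02. With those factors 1176 genes were higher and 1031 lower, so the share of higher genes among those past the limit was 53.3% in place of 63.9%. With a term for the number of genes detected per cell the counts were 1199 and 1204 (49.9% higher), and without cells 44 to 48 they were 1939 and 831 (70% higher). The excess of higher genes thus depended on the scaling and on the cells.

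The overlap of the groups was large. In 0 of 11307 genes did the groups not overlap (0%). As a measure of overlap the pair share was used. It is the share of all pairs of a Klhl13-low and a Klhl13-high cell in which the Klhl13-low cell is higher. Tied pairs, such as those without reads in either cell, were split evenly between the groups. Of all genes, 203 (1.80%) were higher with a pair share of at least 0.75, and 87 (0.769%) were lower with one of at most 0.25. Genes of 10 to 100 CPM were past the limit most often, with 18.1% higher and 10% lower. Among genes of 100 CPM or more it was 5.26% and 3.31%, and among genes under 10 CPM 8.47% and 4.94%.

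The genes with the largest differences among those of at least 10 CPM with such a pair share are described next, 15 in each direction, out of 195 higher and 110 lower candidates. They were chosen by these values, so their differences are a description. All 30 stayed past the limit whichever single cell was left out. Genes chosen as the largest differences have room to do so, and this is no support for them.

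Among the genes higher in Klhl13-low cells were 2 noncoding RNAs of a single imprinted domain. Meg3, the maternally expressed RNA of the Dlk1-Dio3 domain on chromosome 12, ran from 19.05 over 161 to 450 CPM in Klhl13-low cells and from 0.109 over 13.0 to 119 CPM in Klhl13-high cells. Every Klhl13-low cell was above the median of the Klhl13-high cells, and 7 of 12 were above all of them, a difference of 3.24. Rian, the snoRNA host transcript downstream of Meg3, ran from 16.7 over 66.3 to 278 CPM in Klhl13-low cells and from 0.254 over 6.03 to 111 CPM in Klhl13-high cells. Its difference was 2.93 and 4 of 12 Klhl13-low cells lay above all Klhl13-high cells. The groups overlapped because part of the Klhl13-high cells had levels like those of Klhl13-low cells, while others had nearly none. Over the 35 cells Meg3 and Rian had a Spearman correlation of 0.65, over cells that also differ in depth. Mirg, further along the same domain, had few reads, 119 in all Klhl13-low cells and 352 in all Klhl13-high cells. Dlk1, the paternally expressed protein gene of the domain, had reads in 1 of 12 Klhl13-low cells and 0 of 12 Klhl13-high cells.

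Other genes higher in Klhl13-low cells act in signalling at the membrane. Spry4, an inhibitor of receptor tyrosine kinase signalling that ERK itself induces, ran from 57.8 over 228 to 621 CPM in Klhl13-low cells and from 0.335 over 48.7 to 209 CPM in Klhl13-high cells (difference 3.26). The lowest Klhl13-low cell was above the median Klhl13-high cell. Ptprg, a receptor tyrosine phosphatase, had the largest difference of the higher genes (3.68), with 2.14, 50.4 and 300 CPM at the lowest, median and highest Klhl13-low cell. In Klhl13-high cells the same values were 0, 0.389 and 42.6 CPM, and 9 of 12 lay below every Klhl13-low cell. Skap2, a cytoplasmic adaptor of Src family kinases, had a difference of 2.80, and Ly75, an endocytic lectin receptor known from dendritic cells, of 2.90.

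Zc4h2, an X-linked zinc finger protein gene of neural development, ran from 0 over 3.44 to 222 CPM in Klhl13-low cells, with reads in 10 of 12. In Klhl13-high cells 1 of 12 had reads, with 0.224 CPM. Its difference was 2.82 and its pair share 0.903. It summed to 2152 reads in Klhl13-low cells (28.1 CPM, 95% Poisson interval 26.9 to 29.3) and 2 reads in Klhl13-high cells (0.0223 CPM, 0.00270 to 0.0804). At equal depth it was detected in 9 of 12 Klhl13-low cells (75.0%, exact 95% interval 42.8% to 94.5%) and in 0 of 12 Klhl13-high cells (0% to 26.5%). It was low in most Klhl13-low cells too, with a few cells carrying most of the reads.

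The remaining higher genes have varied roles. Nde1, a dynein partner at the centrosome, ran from 35.9 over 171 to 376 CPM in Klhl13-low cells and from 0.335 over 20.4 to 135 CPM in Klhl13-high cells (difference 3.20), with 8 of 12 Klhl13-high cells below every Klhl13-low cell. Ctdsp2, a small phosphatase of the RNA polymerase II tail, had a difference of 3.39, with medians of 43.9 CPM in Klhl13-low and 0.425 CPM in Klhl13-high cells. Supt7l, a subunit of the SAGA and STAGA coactivators, had a difference of 2.98, the X-linked deubiquitinase gene Usp11 of 2.93, and the aminoacylase gene Acy1 of 2.92. The zinc finger genes Zfp790 (3.00) and Zfp867 (2.82) belong to a large family with near copies, and the treatment of reads with more than 1 matching gene is not given in the sources used here. Acy1 was the least separate of the 15, with a pair share of 0.764 and its highest cell, at 414 CPM, among the Klhl13-high cells. Taken as a log2 ratio of mean CPM, its difference was 0.89, under the limit.

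**Figure D2:**
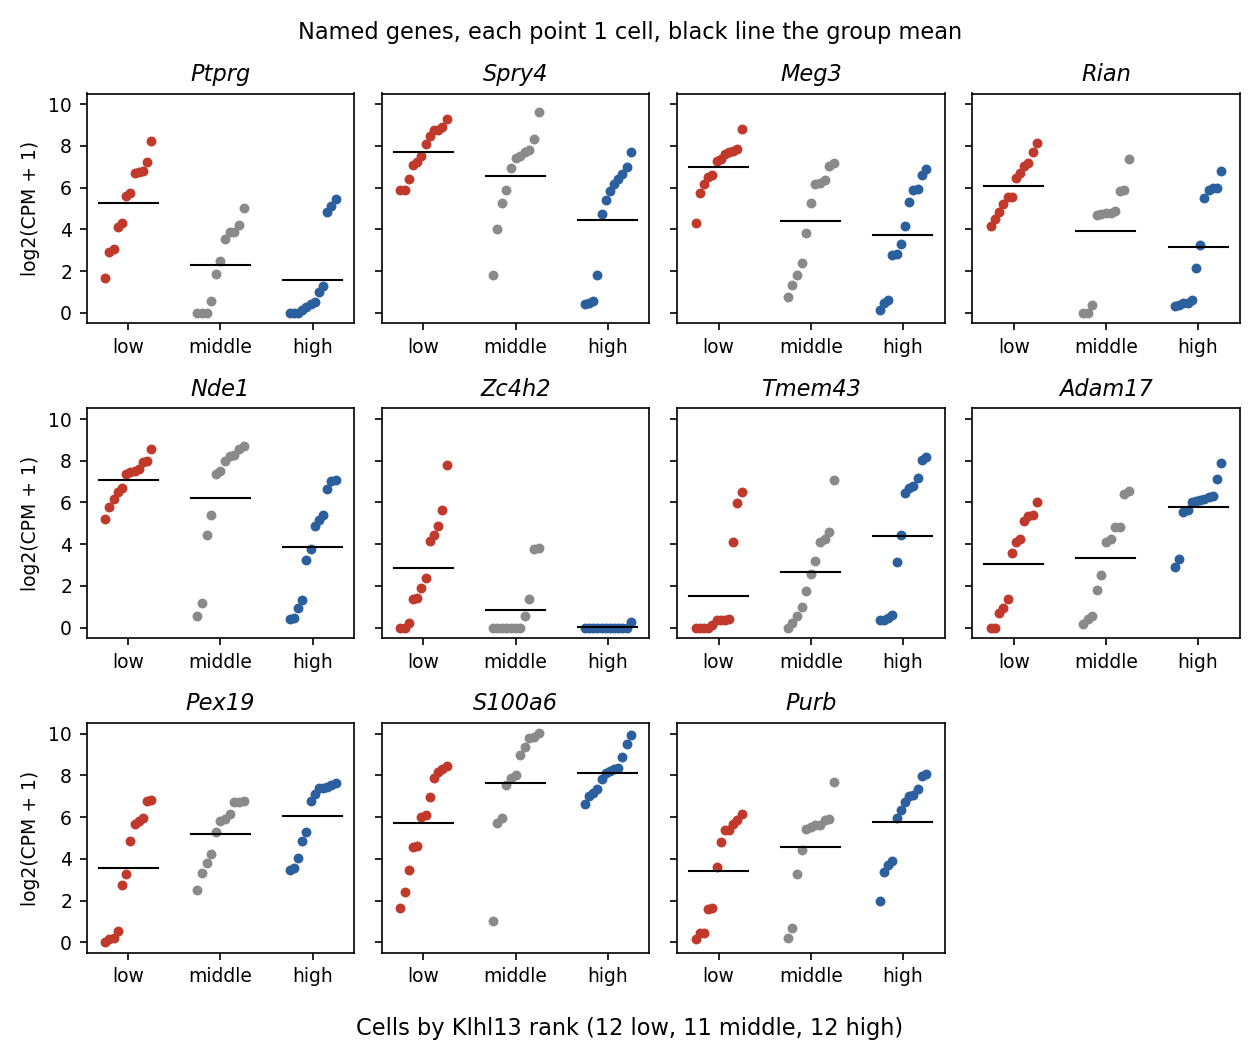
Levels of 11 of the named genes as log2(CPM + 1), each point 1 cell, in 12 Klhl13-low (red), 11 middle (grey) and 12 Klhl13-high cells (blue), with black lines for group means. Zc4h2 is at or near 0 in all Klhl13-high cells, while in the other genes both groups hold cells of like level.

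Genes lower in Klhl13-low cells included several of membranes and organelles. Adam17, the sheddase that releases TNF and EGF family ligands, ran from 0 over 13.7 to 64.7 CPM in Klhl13-low cells and from 6.54 over 67.5 to 237 CPM in Klhl13-high cells (difference -2.71). It had the lowest pair share of all genes, 0.111, and 8 of 12 Klhl13-high cells were above every Klhl13-low cell. Tmem43, an inner nuclear membrane protein, had medians of 0.294 CPM in Klhl13-low and 52.99 CPM in Klhl13-high cells (difference -2.88). Cells with clear reads were fewer among Klhl13-low cells, of which 9 of 12 were under 1 CPM, against 4 of 12 Klhl13-high cells. Pex19, the chaperone of peroxisomal membrane proteins, had medians of 18.5 CPM in Klhl13-low and 123 CPM in Klhl13-high cells (difference -2.47), and 4 of 12 Klhl13-low cells were under 1 CPM. B3gnt7, a glycosyltransferase of keratan sulphate synthesis, had a difference of -2.49, which was -0.81 as a log2 ratio of mean CPM, with 1 Klhl13-low cell at 187 CPM. Ubxn6, an adaptor of the p97 ATPase, had a difference of -2.45.

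The others act in binding of nucleic acid, metabolism, the cell cycle and cell death. S100a6, a small calcium-binding protein, had 2.19, 65.8 and 350 CPM at the lowest, median and highest Klhl13-low cell. In Klhl13-high cells these were 98.9, 282 and 985 CPM (difference -2.39), and 7 of 12 Klhl13-low cells lay below all of them. Purb, a single-strand DNA and RNA binding protein, ran from 0.130 over 19.14 to 69.3 CPM in Klhl13-low cells and from 3.02 over 93.9 to 271 CPM in Klhl13-high cells (difference -2.37). Pts, an enzyme of tetrahydrobiopterin synthesis, reached 5.39 CPM at most in Klhl13-low cells, and 8 of 12 Klhl13-high cells were above that (difference -2.92). E2f7, an atypical E2F repressor, had a difference of -2.31, Mtbp, a binding partner of Mdm2, of -2.31, and Lrdd (now Pidd1), which builds the PIDDosome, of -2.49.

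The kinase gene Mast3 had a difference of -2.49 and the THAP domain gene Thap7 of -2.46. Nlrp9b, a member of a family with near copies known from oocytes, had a difference of -2.67. A130010J15Rik, a protein-coding gene on chromosome 1 without a described role, had the most negative difference of all genes (-3.74), with medians of 0.776 CPM in Klhl13-low cells and 76.3 CPM in Klhl13-high cells. A single Klhl13-low cell reached 163 CPM.

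The middle cells took no part in the choice of genes. Their mean lay between the means of both groups for 15 of 15 higher genes and for 12 of 15 lower ones, A130010J15Rik, Lrdd and Mast3 being lower in middle cells than in Klhl13-low cells. Of the 305 candidates it lay between for 80.3%, of the genes past the limit for 65.6%, and of all genes for 34.8%. A mean lies between more readily the wider the gap, so these shares are not set against each other. Among the 11 middle cells, the rank correlation with Klhl13 had the same sign as the difference would give for 8 of 15 higher and 8 of 15 lower genes. S100a6 had a Spearman correlation of 0.70 with Klhl13 there. For Nde1 (0.75) and Meg3 (0.66) it had the sign opposite to that of all 35 cells (-0.41 and -0.50). The lower genes E2f7 (-0.47) and Purb (-0.45) had the opposite sign there as well. With the sign kept in only 8 of 15 genes of each direction, the order within the middle cells did not generally continue the contrast.

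Counted cell by cell, the named genes did not split the groups without overlap. Of the 15 higher genes, Klhl13-low cells had 8 to 15 above the median of the 24 cells (median 12.5), middle cells 4 to 12 (median 7) and Klhl13-high cells 1 to 9 (median 3). Of the 15 lower genes, Klhl13-low cells had 2 to 6 above it (median 5), middle cells 2 to 11 (median 6) and Klhl13-high cells 8 to 14 (median 11). The choice of genes builds in the distance between the 2 groups. Cells unrelated to Klhl13 would also tend to fall between them, so the place of the middle cells is no separate support. Pairs of the higher genes were linked to different degrees inside a group. Meg3 and Rian had a Spearman correlation of 0.37 in the 12 Klhl13-low and 0.60 in the 12 Klhl13-high cells. For Meg3 and Nde1 it was 0.34 in Klhl13-low and -0.06 in Klhl13-high cells, for Meg3 and Spry4 0.08 in Klhl13-low and 0.15 in Klhl13-high cells, and for Spry4 and Nde1 -0.17 in Klhl13-low and 0.37 in Klhl13-high cells.

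**Figure D3:**
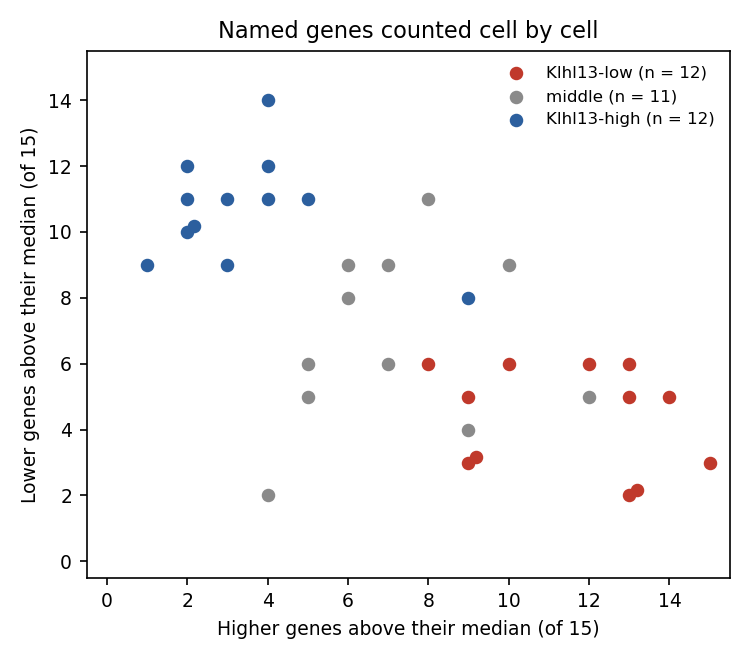
Each point is 1 naive cell, with the number of the 15 higher genes above their median over the 24 compared cells on the horizontal axis and the number of the 15 lower genes above theirs on the vertical axis; points with equal counts are shifted slightly. Klhl13-low cells (red) lie at 8 to 15 by 2 to 6, Klhl13-high cells (blue) at 1 to 9 by 8 to 14. Middle cells (grey) lie at 4 to 12 by 2 to 11, and some are low on both axes, such as cell 36 at 4 by 2.

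Partners of Klhl13 in the ligase showed no common direction. Of 26 compared genes of the CUL3 list, 3 (11.5%) were higher and 2 (7.69%) lower in Klhl13-low cells, close to the background of 12.8% and 7.22%. Klhl9, the paralogue that works with Klhl13, differed by -0.01, and Cul3 itself by 0.48. Keap1, the adaptor that targets NRF2, was higher by 1.90, with medians of 6.31 CPM in Klhl13-low and 0.146 CPM in Klhl13-high cells. Klhl22, an adaptor that targets PLK1 in human cells, was higher by 1.36. The BTB-Kelch genes Kbtbd2 (-1.20) and Kbtbd8 (-1.12) were lower.

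Aurkb, which encodes the Aurora B kinase, was higher by 2.19 in Klhl13-low cells. It ran from 5.83 over 128 to 412 CPM in Klhl13-low cells and from 0.224 over 11.6 to 388 CPM in Klhl13-high cells. In the Klhl13-high group 7 of 12 cells were under 12 CPM and 2 were above 300 CPM, so the groups overlapped fully at the top. Its partners in the chromosomal passenger complex did not move with it: Incenp differed by 0.22, Birc5 (survivin) by 0.32 and Cdca8 (borealin) by -0.31. Aurkb lost its call in 1 of 18 other settings, where its difference was 0.90.

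Genes of G2 and mitosis were higher by more than 1 unit in 6 of 31 cases (19.4%, against 12.8% of all genes) and lower in 0. Besides Aurkb these were Cenpe, a kinetochore motor (1.32), Cdk1, the mitotic kinase (1.23), Kif11, the spindle motor (1.19), Nusap1 (1.03) and Ttk, the checkpoint kinase (1.02). Cdk1 ran from 171 over 470 to 952 CPM in Klhl13-low cells and from 0.168 over 252 to 642 CPM in Klhl13-high cells. Of 31 members 27 were above 0, as were most of all genes, whose median was 0.10. The list's median difference was 0.40. It was 0.22 with TMMwsp factors, with 4 members past the limit, and 0.17 without cells 44 to 48, with 5 higher and 1 lower. By the ratio of mean CPM 1 member was higher, with 16 cells per group 2, with a pseudocount of 10 CPM 3, and with 8 cells per group 3 were higher and 3 lower. Ckap2 (-0.49) and Cdc20 (-0.77) were the members farthest below 0. Genes of replication at G1-S did not follow: 1 of 25 was higher, Mcm7 (1.04), and 2 were lower, the uracil glycosylase gene Ung (-1.19) and the helicase subunit gene Mcm5 (-1.02). Per cell, the mean log2 value of the G2-M list was 7.56 ± 0.53 in Klhl13-low and 7.03 ± 0.58 in Klhl13-high cells (SD, n = 12 each), and that of the G1-S list 6.81 ± 0.72 and 6.80 ± 0.79.

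Most factors of the naive network differed by less than 1 unit. Of 23 naive pluripotency genes 4 (17.4%, against 12.8% of all genes) were higher and 1 was lower, with a list median of 0.40. Tbx3 ran from 0.110 over 60.8 to 243 CPM in Klhl13-low cells and from 0 over 1.42 to 122 CPM in Klhl13-high cells (difference 1.39). Klf2 (1.34), Tcl1, the Akt coactivator (1.30), and Fgf4 (1.11) were also higher. Dppa3 (Stella), which protects methylation in the early embryo, was the 1 lower gene (-2.30), from 0 over 72.2 to 969 CPM in Klhl13-low cells and from 16.7 over 234 to 1026 CPM in Klhl13-high cells. The lowest 3 Klhl13-low cells had under 1 CPM of Dppa3, and no Klhl13-high cell did. Klf4 differed by -0.78, Klf5 by -0.75, Esrrb by 0.43 and Zfp42 by 0.57.

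Of 16 core pluripotency genes, Foxd3 alone was past the limit (1.28), at median levels of 1.94 CPM in Klhl13-low and 0.0582 CPM in Klhl13-high cells. Tdgf1 (Cripto), the Nodal co-receptor, stood below the limit at 0.83, with a pair share of 0.81. It ran from 233 over 1209 to 2449 CPM in Klhl13-low cells and from 292 over 661 to 1121 CPM in Klhl13-high cells. Of 18 genes of the primed epiblast 2 were higher, Otx2 (1.53) and Sox11 (1.33), and 3 were lower, the kinase gene Pim2 (-1.59) and the keratins Krt18 (-1.58) and Krt8 (-1.46). Krt8 reached 31.4 CPM at most in Klhl13-low cells and 739 CPM in 1 Klhl13-high cell, with medians of 0.306 CPM in Klhl13-low and 2.10 CPM in Klhl13-high cells. The medians of Krt18 were alike, 19.5 CPM in Klhl13-low and 20.9 CPM in Klhl13-high cells. Its highest cell had 92.2 CPM among Klhl13-low and 621 CPM among Klhl13-high cells. These keratins also make up the 2 lower genes among 8 trophoblast markers, of which 0 were higher.

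Signalling genes were past the limit in both directions. The median of the FGF-ERK feedback list was 0.23. Of 19 members 2 (10.5%, against 7.22% of all genes) were lower and 5 (26.3%, against 12.8%) higher. Besides Spry4 and the ligand gene Fgf4 these were Spred2 (1.97) and Spry1 (1.14), inhibitors of the same family, and the ETS factor gene Etv1 (1.10). Dusp6, the ERK phosphatase that ERK induces as well, was lower (-1.28), from 0 over 19.2 to 147 CPM in Klhl13-low cells and from 0.109 over 73.2 to 272 CPM in Klhl13-high cells. The receptor gene Fgfr1 was lower by 1.01. Spry4 and Dusp6 thus differed in opposite directions, and over the 35 cells their Spearman correlation was -0.08. Without cells 44 to 48 the list had 3 higher and 3 lower, and a median of -0.17.

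Of 13 LIF-STAT3 genes, the receptor chain gene Il6st (1.38) and Stat3 (1.06) were higher, and the kinase gene Jak1 was lower (-1.17). Of 17 BMP and Nodal genes 3 were higher: Nodal (1.95), the inhibitory Smad7 (1.56) and the Nodal antagonist Lefty2 (1.08). Nodal ran from 0.219 over 19.09 to 75.9 CPM in Klhl13-low cells and from 0 over 1.31 to 151 CPM in Klhl13-high cells. Id2 had a difference of -1.002, whose sign turned with 16 cells per group and with medians. In the WNT list 7 of 14 genes had enough reads, and 2 were higher and 1 lower. Znrf3, a ligase that removes WNT receptors, was lower (-1.99), from 0 over 55.6 to 235 CPM in Klhl13-low cells and from 1.19 over 153 to 325 CPM in Klhl13-high cells, with a pair share of 0.18. Tcf7 had a difference of 1.13, and Tcf7l2 of 1.30, whose sign turned with 16 cells per group.

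Imprinted genes were past the limit in 6 of 20 cases, 5 (25%, against 12.8% of all genes) higher and 1 (5%, against 7.22%) lower. Their median was 0.45. Beside Meg3 and Rian, the higher ones were the amino acid transporter gene Slc38a4 (1.63, of opposite sign with medians), the hydrolase-like gene Mest (1.35) and Nnat (1.07). Nnat was near its limit of detection, with medians of 0.113 CPM in Klhl13-low and 0 CPM in Klhl13-high cells. Peg3, a paternally expressed zinc finger gene, was lower (-1.58), with medians of 0.159 CPM in Klhl13-low and 2.18 CPM in Klhl13-high cells. Without cells 44 to 48 there were 8 higher and 2 lower. Of 10 genes for DNA methylation and its removal, 0 were past the limit, Dnmt1 being nearest (0.98). Of 10 PRC2 genes, Ezh1 (1.90) and Eed (1.05, of opposite sign with medians) were higher and Phf19 was lower (-1.50).

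Of 18 germline genes 4 (22.2%, against 12.8% of all genes) were higher and 0 lower. With a pseudocount of 10 CPM 1 was higher, and with 8 cells per group 2 were higher and 2 lower. Trh, the precursor of thyrotropin-releasing hormone, had 0, 239 and 2438 CPM at the lowest, median and highest Klhl13-low cell, and 0, 71.6 and 245 CPM in Klhl13-high cells (difference 1.99). In 6 Klhl13-low cells it was above every Klhl13-high cell, while 2 had under 1 CPM. Hormad1 (1.48) and Sycp1 (1.03), proteins of the meiotic chromosome axis and synapsis, and the ADP-ATP carrier gene Slc25a31 (1.36) were the other 3. Of 12 genes that varied most between naive cells in an earlier look at these data, 4 were higher and 2 lower. The calcium sensor gene Ncs1 had the largest difference of them (2.77), from 0 over 11.4 to 528 CPM in Klhl13-low cells and from 0 over 0.0900 to 154 CPM in Klhl13-high cells. Rab31 differed by 0.31, Morc1 by 0.93, Car2 by -0.24, Calcoco2 by -0.99, Tuba3a by -0.90 and Tet2 by 0.41.

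**Figure D4:**
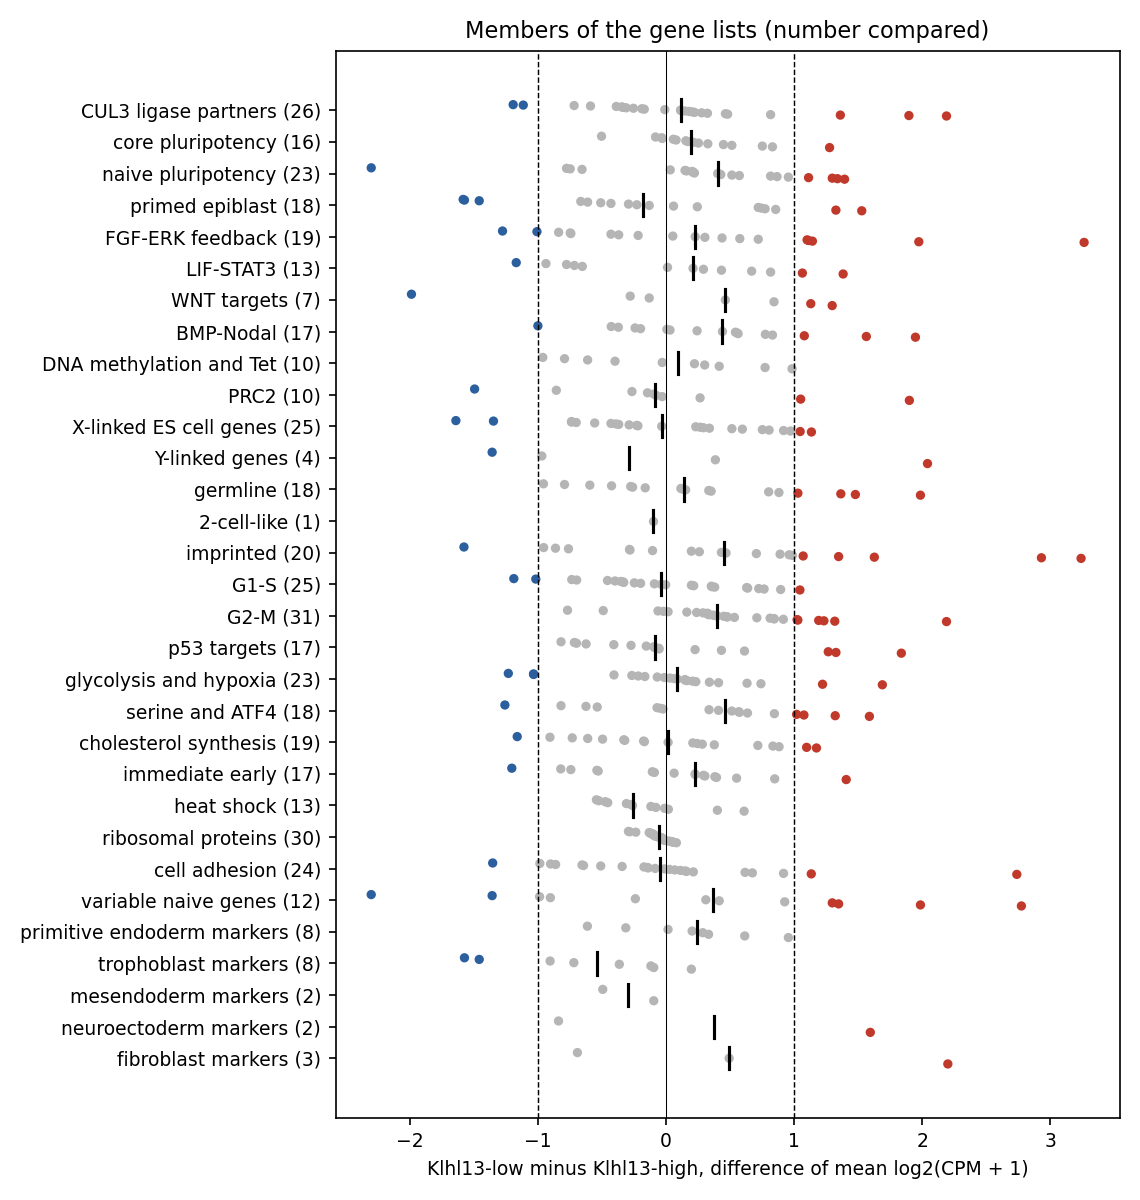
Difference of mean log2(CPM + 1), Klhl13-low minus Klhl13-high cells, for each compared member of 31 gene lists, with the number compared in brackets. Red and blue points are past 1 unit (dashed lines), black bars are list medians. Most lists spread around 0, the 30 ribosomal protein genes lie within 1 unit, and 27 of 31 G2-M genes lie above 0. The median of all compared genes was 0.10.

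X-linked genes as a whole did not stand out. Of 399 X-linked genes, 48 (12%) were higher and 38 (9.52%) lower, where the 10822 autosomal genes had 12.8% and 7.14%. Of the 5 compared genes on each side of Klhl13, Pgrmc1 alone was past the limit (-1.50), with a pair share of 0.43. Among 25 X-linked genes with roles in ES cells, Xist (1.13) and Xlr3a (1.05, of opposite sign with medians) were higher and the homeobox genes Rhox6 (-1.64) and Rhox9 (-1.35) lower. Xlr3a and the Rhox genes belong to families with near copies. Of 4 Y-linked genes, the histone demethylase relative Uty was higher (2.04) and the translation factor gene Eif2s3y lower (-1.36), while Ddx3y differed by 0.38. Eif2s3y ran from 0.188 over 80.6 to 293 CPM in Klhl13-low cells and from 0 over 189 to 491 CPM in Klhl13-high cells.

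Genes of stress and metabolism were divided. Of 18 genes of serine synthesis and the ATF4 response 4 (22.2%, against 12.8% of all genes) were higher, with a list median of 0.46. The higher ones were Aldh18a1 of proline synthesis (1.59), Ddit3 (1.32), and the folate enzymes Shmt1 (1.08) and Mthfd2 (1.02). Shmt1 ran from 225 over 355 to 948 CPM in Klhl13-low cells and from 64.0 over 205 to 607 CPM in Klhl13-high cells, with a pair share of 0.81. Nupr1 was lower (-1.26). Of 17 p53 targets 3 were higher, Zmat3 (1.84), Rrm2b (1.33) and Cdkn1a (1.27), and 0 were lower, though the list's median was -0.09. Over summed reads Cdkn1a was alike, with 52.1 CPM in Klhl13-low and 51.1 CPM in Klhl13-high cells. It was past the limit in 13 of 18 other settings. Of 23 genes of glycolysis and hypoxia, P4ha1 (1.69) and Ldhb (1.22) were higher, and the oxidase gene Ero1l (-1.23), Hk1 (-1.04) and the glucose transporter gene Slc2a1 (-1.04) lower.

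Of 19 cholesterol synthesis genes, Ebp (1.17) and Cyp51 (1.10) were higher and 1 gene was lower. Of 17 immediate early genes, Dusp1 was higher (1.41) and Klf6 lower (-1.21). In the adhesion list of 24 genes, the syndecan gene Sdc1 was higher by 2.74 with a pair share of 0.83, from 0 over 11.0 to 222 CPM in Klhl13-low cells and from 0 over 0 to 14.4 CPM in Klhl13-high cells. Tjp1 of tight junctions was higher (1.13) and the glypican gene Gpc4 lower (-1.35). Sdc4, a more abundant syndecan gene, went the other way from Sdc1 but stayed under the limit (-0.99). Over summed reads Sdc4 had 623 CPM in Klhl13-low and 1586 CPM in Klhl13-high cells. Vim, the intermediate filament of mesenchymal cells, was higher by 2.20 while Col1a1 had reads in 0 of 12 Klhl13-low and 4 of 12 Klhl13-high cells. Tubb3 was higher by 1.59, with Sox1 and Pax6 at 3.95 CPM or less in every cell. Nes, also a neuroectoderm marker, went the other way (-0.84). It had reads in 2 of 12 Klhl13-low cells, up to 4.64 CPM, and in 5 of 12 Klhl13-high cells, up to 29.7 CPM. Of 13 heat shock genes and 30 ribosomal protein genes 0 were past the limit, with medians of -0.26 and -0.06. The summed level of the ribosomal protein genes was 40345 ± 5997 CPM in Klhl13-low cells and 41787 ± 5808 CPM in Klhl13-high cells (SD, n = 12 each). Of 8 primitive endoderm and 2 mesendoderm markers with enough reads 0 were past the limit, and the 1 gene of the 2-cell-like list with enough reads, Eif1a, differed by -0.10.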

How the data were processed

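The authors deposited raw read counts in a table of 23284 genes. The genome build mm9 and the tools STAR 2.3.1z12, featureCounts and Subread 1.4.5-p1 are listed in the submitters' processing notes, which give neither roles nor order. Lanes were summed per cell and counts scaled to CPM by the cell total, 4408953 to 9767245 reads. The members and the 31 gene lists (525 genes) were chosen with earlier results of these data known. Named were the 15 higher and 15 lower genes with the largest difference among those with a mean of at least 10 CPM and a pair share of at least 0.75 or at most 0.25, up to 4 genes per list by size of difference, and the list of variable naive genes. Members past the limit outside this rule, and single genes set beside them, were named after their values were seen. The calculation was checked on simulated data. Python 3.11.15, numpy 2.4.6, pandas 2.3.3 and scipy 1.17.1 were used, with edgeR 4.0.16 and DESeq2 1.42.0 in R 4.3.3 for alternative scaling factors only. Alternatives were other scalings, pseudocounts, count filters, Gata6 limits, group sizes, lanes and summaries, a term for genes detected, and each cell left out. A few genes counted here are not reported by name.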

Additional observations from a re-analysis of the deposited data

How the results depend on the processing

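Separate cultures are not named in the labels, and no value extends beyond the cells compared. List counts moved with the settings: the FGF-ERK list had 1 to 6 higher and 1 to 6 lower members, the imprinted list 2 to 8 higher and 0 to 4 lower, and the G2-M list 1 to 7 higher and 0 to 3 lower. With a pseudocount of 10 CPM, 266 genes were higher and 130 lower. With 8 cells per group 1683 genes were lower, and by the ratio of mean CPM 1768. Leaving out each cell in turn gave 1365 to 1612 higher and 739 to 941 lower genes. The sign turned for Tcf7l2 (-0.26) and Id2 (0.23) with 16 cells per group, and with differences of medians for Id2 (0.72), Eed (-0.29), Xlr3a (-0.25) and Slc38a4 (-0.13). The cause was not tested. The setting without cells 44 to 48 was chosen after seeing the data. No paired analysis was possible because all cells belong to 1 group and no number is shared between Klhl13-low and Klhl13-high cells. Other Gata6 limits left the chosen cells as they were.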
